A study of Mus musculus with 6 samples.

Results

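Immediate early genes are a group of 10 named genes here: Fos, Fosb, Jun, Junb, Egr1, Ier2, Atf3, Dusp1, Nr4a1 and Zfp36. They were taken by gene symbol from a list drawn up with earlier results of these arrays known, out of 18193 genes with a named probe set in mouse bladder at embryonic day 18.5. All 10 had at least 1 probe set, and Jun had a second one. RNA from bladders of Get1 -/- embryos (null 1, null 2 and null 3) and of Get1 +/- embryos (heterozygous 4, 5 and 6) had been hybridised to 1 array each. Get1 is another name of Grhl3, a transcription factor of surface epithelia. The control animals also carry 1 mutant allele, wild-type bladders were not analysed here, and the labels do not describe the allele or say whether a sample held 1 bladder or several. The p-values therefore measure the spread between these arrays.

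Immediate early genes are transcribed within minutes of a stimulus, without new protein synthesis, from promoters that kinase-activated factors such as SRF and CREB already occupy or can quickly reach. Their RNAs are mostly short-lived. Growth factors, stretch and injury are all known to raise them, in bladder as in other organs. Fos, Fosb, Jun, Junb and Atf3 encode leucine zipper proteins of the AP-1 and ATF families, Egr1 a zinc finger activator, Nr4a1 an orphan nuclear receptor and Ier2 a small nuclear protein. Dusp1 encodes a phosphatase that switches MAP kinases off, and Zfp36 encodes tristetraprolin, which binds AU-rich RNAs and speeds their decay.

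The genotypes overlapped for all 10 members, as for most genes: they were separate in only 13.4% of the genes tested. For all 10 the range within at least 1 genotype also exceeded the difference of the genotype means. The share of all genes for which this held was not counted, so it is not shown to be a trait of the members. In whole bladders, fewer cells of a type and less RNA per cell cannot be told apart. Of the 9 tested members 0 were called by limma over all genes, where 0.448% of the genes tested were higher and 0.0628% lower at an adjusted p under 0.05, and 0 had an unadjusted p under 0.05 (7.93% of all genes did). The same 2 arrays, null 1 and heterozygous 4, were the lowest of the 6 for 7 of the 10 members, and heterozygous 6 was the highest for 6. For Jun, Junb and Zfp36 these 2 arrays were not both lowest. The mean of all 18193 genes, each centred on its own mean, was also lowest on null 1 (-0.097) and heterozygous 4 (-0.0245). It was highest on heterozygous 6 (0.0629), so having these arrays lowest and highest is not particular to the members. The shifts of that mean were small, and the order of the other arrays differed from that of the members. Null 1 also had the lowest median signal of the 6 arrays (58.0). The share of all genes with these arrays lowest and highest was not counted.

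The promoters of members with a large spread between arrays are shown together with that of Zfp36, which had little. RefSeq (build GRCm38.p6) gave an entry for 8 of the 10 members, and Egr1 and Ier2 had none. The 250 bases before the transcription start are printed 5′ to 3′ on the strand of the gene. Capitals mark TGACG or its reverse complement, the core of the cyclic AMP response element (CRE) to which CREB and ATF proteins bind.
Fos: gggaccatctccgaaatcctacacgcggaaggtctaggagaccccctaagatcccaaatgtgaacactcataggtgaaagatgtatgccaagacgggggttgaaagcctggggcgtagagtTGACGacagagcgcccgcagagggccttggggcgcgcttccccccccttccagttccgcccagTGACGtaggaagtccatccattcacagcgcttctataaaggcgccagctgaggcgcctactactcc
Fosb: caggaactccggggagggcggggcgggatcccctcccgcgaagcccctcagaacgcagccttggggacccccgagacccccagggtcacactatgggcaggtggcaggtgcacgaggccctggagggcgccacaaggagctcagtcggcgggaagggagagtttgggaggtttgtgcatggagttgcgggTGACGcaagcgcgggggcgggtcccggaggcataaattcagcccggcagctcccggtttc
Atf3: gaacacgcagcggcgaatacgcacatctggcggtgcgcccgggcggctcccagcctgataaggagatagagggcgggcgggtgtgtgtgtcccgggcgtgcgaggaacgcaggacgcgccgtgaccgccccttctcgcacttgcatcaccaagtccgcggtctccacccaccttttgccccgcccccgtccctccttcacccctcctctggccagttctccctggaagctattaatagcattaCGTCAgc
Nr4a1: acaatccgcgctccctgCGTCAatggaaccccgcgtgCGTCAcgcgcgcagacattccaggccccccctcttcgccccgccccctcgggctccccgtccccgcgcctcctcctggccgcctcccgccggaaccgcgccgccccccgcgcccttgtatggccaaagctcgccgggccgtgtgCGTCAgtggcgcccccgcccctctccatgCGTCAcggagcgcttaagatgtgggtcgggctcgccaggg
Dusp1: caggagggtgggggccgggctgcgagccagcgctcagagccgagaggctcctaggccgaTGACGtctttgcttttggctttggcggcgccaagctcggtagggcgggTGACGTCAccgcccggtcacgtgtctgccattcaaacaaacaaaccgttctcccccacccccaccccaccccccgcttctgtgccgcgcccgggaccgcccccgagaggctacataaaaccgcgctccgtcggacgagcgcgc
Zfp36: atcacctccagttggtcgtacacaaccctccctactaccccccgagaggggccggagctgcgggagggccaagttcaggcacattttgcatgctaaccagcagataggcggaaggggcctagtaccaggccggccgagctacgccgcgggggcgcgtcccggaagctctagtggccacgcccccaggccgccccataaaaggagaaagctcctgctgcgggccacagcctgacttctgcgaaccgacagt
The sequences lie at chr12:85473640-85473889 (plus strand) for Fos, chr7:19310046-19310295 (minus strand) for Fosb and chr1:191183334-191183583 (minus strand) for Atf3. Those of Nr4a1, Dusp1 and Zfp36 lie at chr15:101266596-101266845 (plus strand), chr17:26508473-26508722 (minus strand) and chr7:28379229-28379478 (minus strand).

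The CRE core was present in 6 of the 8 member promoters (Fos, Fosb, Junb, Atf3, Dusp1 and Nr4a1), and in 17.8% of 32851 RefSeq promoter windows of the same length searched on both strands. Nr4a1 held 4 copies, Dusp1 held 3, Fos held 2, and Fosb, Junb and Atf3 held 1 each. Jun and Zfp36 held 0. The promoters of Jun and Junb are not printed, and whether the core goes with the spread between arrays was not tested. One pair in Dusp1 overlaps within a full CRE (TGACGTCA, present in 1.55% of all windows), from base -143 to -136 relative to the start. Fos carried the CRE core from -66 to -62 and a TATAAA box from -33 to -28. The EGR motif GCGGGGGCG was found in Fosb, Nr4a1 and Zfp36 and in 2.57% of all windows. The CArG box, the motif of SRF, matched in Zfp36 from -58 to -49 and in 1.47% of all windows, and 0 of the 8 held the AP-1 motif TGANTCA (6.75% of all windows). These are exact letter matches in a short window and not measured binding. Near matches were not counted, such as TGACATCA in the Jun window, 1 letter from the full CRE. Sites further upstream were not searched.

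Before the members are described, 2 arrays need their technical values. Control probe sets read both ends of the Gapdh transcript, and the ratio of 3′ to 5′ signal was 1.85, 3.30 and 2.63 on null 1 to 3 and 2.35, 2.49 and 10.1 on heterozygous 4 to 6. The ratio for beta-actin was 3.36 to 5.12 on the null arrays, and 4.28, 3.97 and 11.6 on heterozygous 4 to 6. Heterozygous 6 stood apart in both ratios. Null 1 is the only array whose title carries 1 rather than 2 as its first number, and the labels do not explain that number. Values without each array are given with the comparison below.

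Bladder markers were present on all 6 arrays. Of the 10 urothelial markers tested, 0 were called higher and 1 was called lower: Upk2, a uroplakin of the umbrella cell membrane, read 193 to 321 in null and 1696 to 2496 in heterozygous bladders (difference -3.03, limma adjusted p = 0.00223). Upk1a read 120 to 649 in null and 1332 to 1804 in heterozygous bladders, a difference of -2.36 that did not pass (limma adjusted p = 0.199), and Upk1b read 4675 to 6130 in null and 5838 to 9729 in heterozygous bladders. Smooth muscle actin Acta2 lay at 35562 to 38014 in null and 30733 to 39244 in heterozygous bladders. Summed signal of 10 intestinal markers was 13073 to 21313 in null and 278 to 541 in heterozygous bladders, and 8 of the 8 tested rose. Its part in the values of the immediate early genes was not tested. The Grhl3 probe set read 76.6, 21.5 and 119.7 over null 1 to 3 and 143.3, 132.9 and 125.6 over heterozygous 4 to 6, a difference of -0.95 that did not pass (limma adjusted p = 0.655). Whether that probe set reads the mutated region is not known from the labels, so the value may check nothing.

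**Figure D1:**
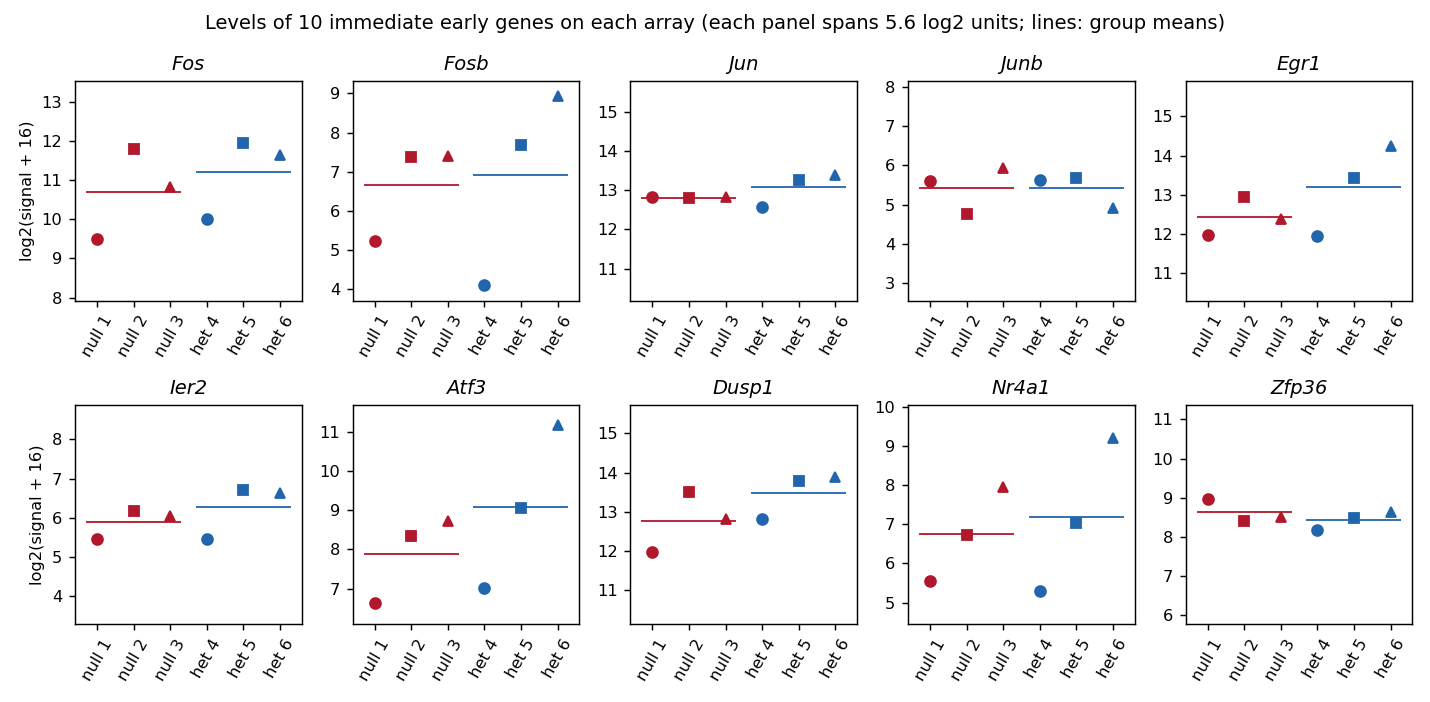
Level of each of the 10 immediate early genes as log2(signal + 16), a point per array, null arrays in red on the left and heterozygous arrays in blue on the right, with group means as lines and the same span of 5.6 log2 units in every panel. Null 1 and heterozygous 4 lie lowest in 7 panels. Jun, Junb and Zfp36 stay within 1.18 log2 units, and Ier2, 1 of those 7, within 1.26.

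Fosb, Atf3 and Nr4a1 had the widest ranges over the 6 arrays, and Fos came next. Fos, a subunit of AP-1, had signals of 707, 3517 and 1806 on null 1 to 3 and of 1011, 3956 and 3168 on heterozygous 4 to 6. Each genotype thus held 1 low array and 2 higher ones, and the groups overlapped. On the log2(signal + 16) scale Fos averaged 10.71 ± 1.15 on the null arrays and 11.20 ± 1.05 on the heterozygous ones (SD, n = 3 each), a difference of -0.49 with a 95% interval from -2.04 to 1.05 (limma adjusted p = 0.921).

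Fosb, a close relative of Fos, read 21.4, 149.7 and 153.6 on null 1 to 3 and 1.21, 190.3 and 471.2 on heterozygous 4 to 6. Heterozygous 4 was close to the lowest value the scale allows (log2 of 4.10 against a floor of 4) and heterozygous 6 was the highest, so the heterozygous values enclosed those of all null arrays. The Fosb means were 6.67 ± 1.25 on the null arrays and 6.91 ± 2.50 on the heterozygous ones (SD, n = 3 each), with a difference of -0.24 and an interval from -2.94 to 2.46 (limma adjusted p = 0.986). The sign depended on the offset, with 0.46 at an offset of 1.

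Atf3, a stress-induced factor that can repress its targets as a homodimer, had signals of 82.2, 306.9 and 407.3 in null and of 114.3, 518.1 and 2270 in heterozygous bladders. Heterozygous 6 was far above the other 5 arrays, and null 1 and heterozygous 4 were below 115. Atf3 had the largest difference among the members, -1.19 (interval from -3.47 to 1.09), from means of 7.89 ± 1.12 on the null arrays and 9.08 ± 2.07 on the heterozygous ones (SD, n = 3 each, limma adjusted p = 0.842). Without heterozygous 6 that difference was -0.15, and without heterozygous 4 it was -2.22.

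Jun was steadier between arrays. Jun, with which Fos proteins pair, read 7230, 7097 and 7211 on null 1 to 3 and 6113, 9794 and 10713 on heterozygous 4 to 6. The 3 null arrays lay within 0.03 log2 units of one another and inside the heterozygous range, which spanned 0.81. The difference was -0.26 (interval from -0.87 to 0.34, limma adjusted p = 0.876). The second Jun probe set, at 456.0, 462.8 and 414.7 in null and 455.8, 556.7 and 784.7 in heterozygous bladders, also had heterozygous 5 and 6 highest, with a difference of -0.38.

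Junb, a Jun relative that often restrains growth, was dim on this platform. Its probe set read 32.5, 11.1 and 45.5 in null and 33.4, 35.4 and 14.3 in heterozygous bladders. The lowest arrays were null 2 and heterozygous 6, unlike those of the other members. Junb was the 1 member left out by the filter on dim genes (mean log2 under 5.80), and with no filter its difference was 0.02 (interval from -0.85 to 0.90, limma adjusted p = 0.998).

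Egr1, whose zinc fingers bind GC-rich promoters, had signals of 3989, 7808 and 5288 in null and of 3947, 10993 and 19502 in heterozygous bladders. Null 1 and heterozygous 4 were nearly equal at the bottom, and heterozygous 5 and 6 were above all null arrays. Egr1 averaged 12.42 ± 0.49 on the null arrays and 13.21 ± 1.17 on the heterozygous ones (SD, n = 3 each), a difference of -0.79 with an interval from -2.07 to 0.49 (limma adjusted p = 0.797). It was -0.26 without heterozygous 6.

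Nr4a1 read 31.1, 89.6 and 233.3 on null 1 to 3 and 23.0, 114.6 and 576.9 on heterozygous 4 to 6. Arrays of both genotypes are mixed in the order of levels, from heterozygous 4 at the bottom to heterozygous 6 at the top. The Nr4a1 difference was -0.43 (interval from -2.67 to 1.81, limma adjusted p = 0.959), and it became 0.59 without heterozygous 6 and 0.17 without null 1. Ier2, dim but above the filter, had signals of 27.9, 55.9 and 50.0 in null and of 28.0, 88.9 and 82.6 in heterozygous bladders. It too was lowest on null 1 and heterozygous 4, with a difference of -0.37 (interval from -1.25 to 0.50, limma adjusted p = 0.877).

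Dusp1 and Zfp36 are the feedback genes of the group. Dusp1 had signals of 4037, 11525 and 7247 in null and of 7183, 14034 and 15008 in heterozygous bladders. Null 1 was the lowest array, and heterozygous 5 and 6 were above all null arrays. Dusp1 had the smallest p of the members, with means of 12.77 ± 0.76 on the null arrays and 13.49 ± 0.59 on the heterozygous ones (SD, n = 3 each), a difference of -0.72 and an interval from -1.73 to 0.29 (limma adjusted p = 0.760, exact permutation p = 0.3). Its difference was -0.33 without null 1.

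Zfp36 read 482.4, 325.7 and 347.5 on null 1 to 3 and 275.7, 343.2 and 384.4 on heterozygous 4 to 6. Here null 1 was the highest array, in contrast to its place for Fos, Fosb and Atf3, and heterozygous 4 was again the lowest. The Zfp36 difference was 0.19, with an interval from -0.38 to 0.75 (limma adjusted p = 0.916). It was 0.02 without null 1.

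**Figure D2:**
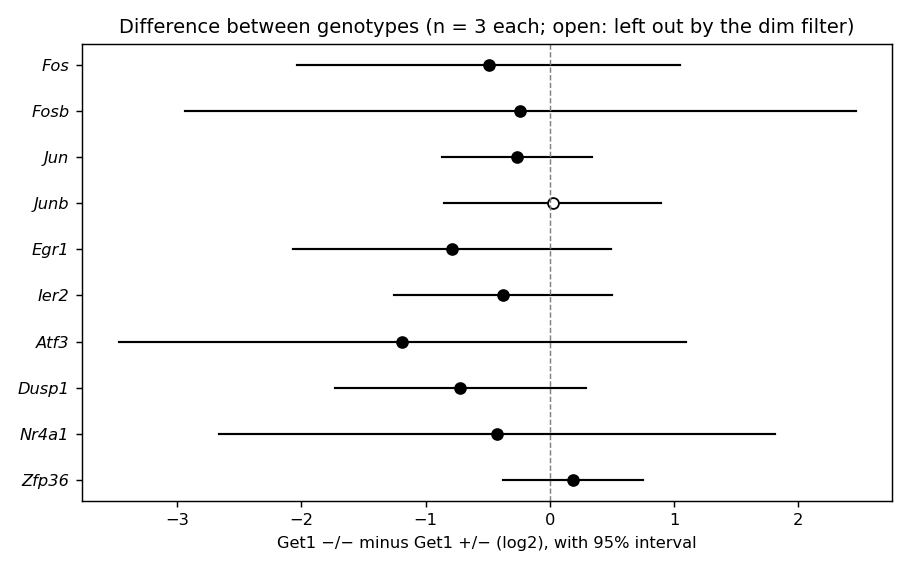
Difference Get1 -/- minus Get1 +/- on the log2(signal + 16) scale for each member, with 95% intervals from limma (3 arrays per genotype). All 10 intervals include 0, from the widest for Fosb (-2.94 to 2.46) to the narrowest for Zfp36 (-0.38 to 0.75), and the open point marks Junb, taken from the fit without the filter.

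Set side by side, 8 of the 10 members had a negative difference, and 54.9% of all genes with a probe set did. The median difference was -0.40 over the 10 members and -0.04 over all 18193 genes. In 0 of the 10 were the genotypes separate, while they were separate in 13.4% of the 12735 genes tested. At an adjusted p under 0.05, 0.51% of those genes were called, which was 57 higher and 8 lower. The intervals leave room for sizeable differences in either direction: for Fosb, Atf3 and Nr4a1 they span more than 4 log2 units.

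The median over the members was -0.17 without heterozygous 6, -0.11 without null 1 and -1.07 without heterozygous 4. Fos changed sign without null 1 (0.11), and Fosb without null 1 (0.48), heterozygous 5 (0.15) or heterozygous 6 (0.77). With 3 arrays per genotype the smallest two-sided exact permutation p is 0.1, and the members lay between 0.3 (Dusp1) and 1 (Junb).

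**Figure D3:**
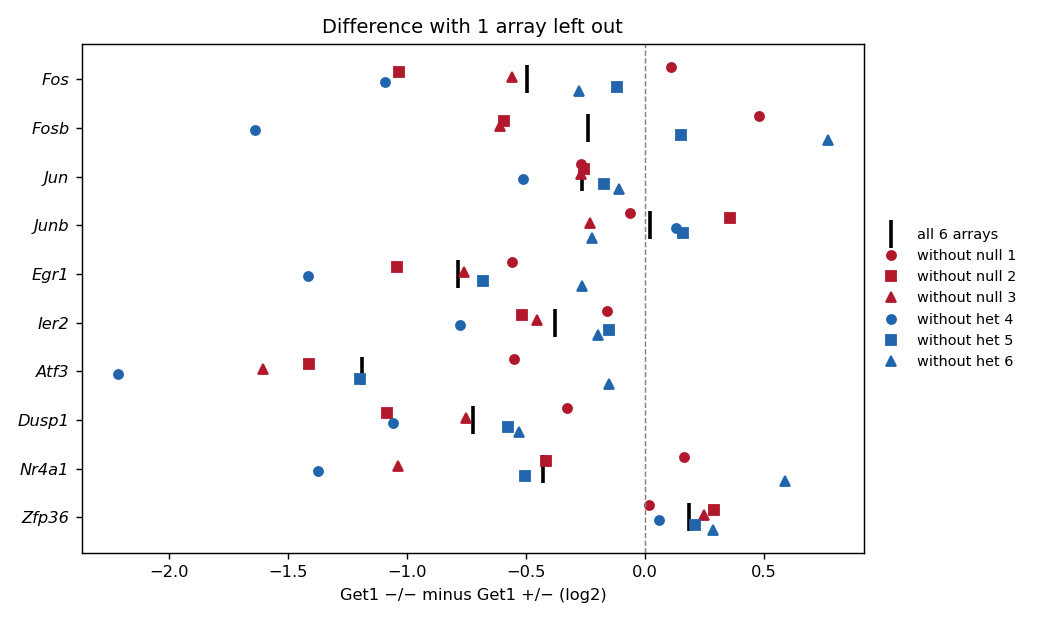
Difference Get1 -/- minus Get1 +/- (log2) for each member with all 6 arrays (black bar) and with 1 array left out (coloured points). Leaving out heterozygous 4 moves Fos, Fosb, Jun, Egr1, Ier2, Atf3 and Nr4a1 furthest down (Atf3 to -2.22), and leaving out heterozygous 6 moves Fosb and Nr4a1 above 0 (0.77 and 0.59).

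The spread within a genotype is given beside that of all genes tested as a description, since it was known when the members were chosen. The residual SD, the spread of a gene around its genotype mean over the 6 arrays, was 1.98 for Fosb, 1.66 for Atf3, 1.63 for Nr4a1, 1.1 for Fos, 0.89 for Egr1 and 0.68 for Dusp1, on the log2 scale. Over all genes tested the median was 0.35. Fosb, Atf3 and Nr4a1 ranked above 99.8% of the 12735 genes, and 6 of the 9 tested members were in the top 10% by this measure, which holds 1274 genes. Ier2 lay at the 82.6th percentile, Jun at the 41.4th and Zfp36 at the 31.7th. For the dim arrays of Fosb and Nr4a1 the offset sets part of these values: at an offset of 64 the residual SD was 1.22 for Fosb, 1.19 for Nr4a1 and 1.46 for Atf3, and 6 members were in the top 10%. At an offset of 1 it was 3.14 for Fosb, and 5 members were. Among members above the dim threshold on every array, the fold between the lowest and the highest array on the offset scale was 23.3 for Atf3, 5.49 for Fos, 4.92 for Egr1, 3.71 for Dusp1, 1.75 for Jun and 1.71 for Zfp36.

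**Figure D4:**
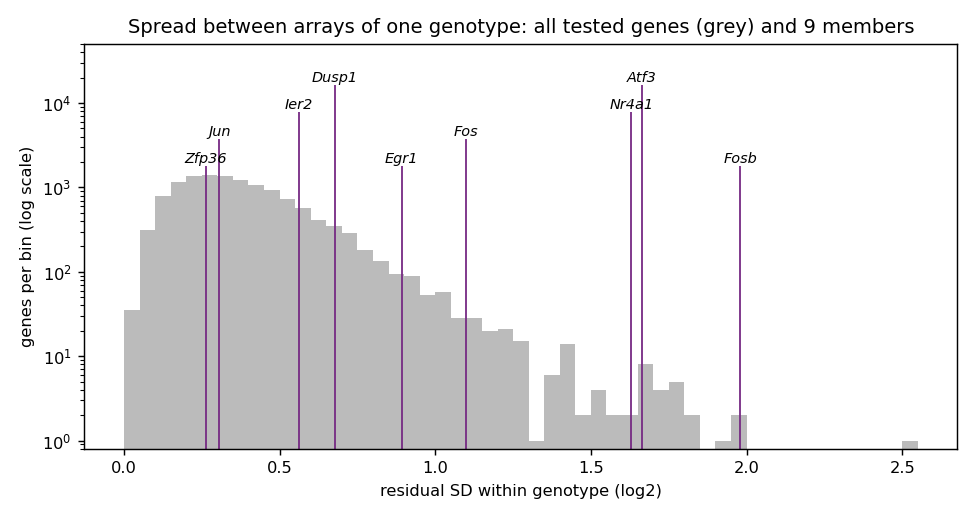
Residual SD within genotype (log2) of the 12735 tested genes as a histogram with a log count axis, with the 9 tested members marked by lines. Fosb, Atf3 and Nr4a1 lie between 1.63 and 1.98, far right of the median of 0.35, while Jun (0.31) and Zfp36 (0.26) lie left of it.

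Array by array, the mean of the 10 members, each centred on its own mean, was -0.84, 0.07 and 0.13 on null 1 to 3 and -0.91, 0.50 and 1.05 on heterozygous 4 to 6. The Gapdh 3′ to 5′ ratio was highest on heterozygous 6, where this mean was also highest, and lowest on null 1. Among the other 5 arrays, the lowest Gapdh ratios were those of null 1 (1.85) and heterozygous 4 (2.35), the arrays with the lowest member means. The beta-actin ratio did not follow this order. Among the same 5 arrays it was lowest on null 1 (3.36) and heterozygous 5 (3.97), and heterozygous 4 (4.28) was above null 3 (4.01). With heterozygous 6 left out, 6 members were in the top 10% by spread, and with heterozygous 4 left out 4 did. Signal of the 18S ribosomal RNA control was 15662, 8827 and 11481 on null 1 to 3 and 16748, 9498 and 6649 on heterozygous 4 to 6, so the highest values fell on null 1 and heterozygous 4. The part of RNA quality or ribosomal RNA in the member values was not tested.

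Of the 8 immune cell markers, 6 were highest on heterozygous 6. The share of all genes highest on that array was not counted, and the mean of all genes was also highest there (0.0629). Summed signal of the 8 markers was 3026 to 3472 on the null arrays and 3038, 3365 and 9990 on heterozygous 4 to 6. Csf1r, the macrophage growth factor receptor, read 1568 to 2305 on the null arrays and 1818, 2448 and 7247 on heterozygous 4 to 6. Lyz2, a lysozyme of myeloid cells, read 358 to 581 on the null arrays and 405, 311 and 1697 on heterozygous 4 to 6. The lymphocyte markers Cd3e and Cd79a were below 60 everywhere. Markers of neurons and glia, each centred on its own mean, averaged -0.93, -0.29 and 0.38 on null 1 to 3 and -0.02, 0.39 and 0.47 on heterozygous 4 to 6. Urothelial markers averaged -0.33, -0.37 and -0.41 on null 1 to 3 and 0.05, 0.37 and 0.69 on heterozygous 4 to 6. Over the 6 arrays these means had an r with the member mean of 0.71 for neurons and glia, 0.62 for urothelium and 0.38 for immune cells. For the other marker lists r was 0.36 for fibroblasts, -0.09 for endothelium and -0.24 for intestine. It was -0.59 for bladder smooth muscle and -0.77 for erythroid cells. The part of these cell types in the member values was not tested.

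**Figure D5:**
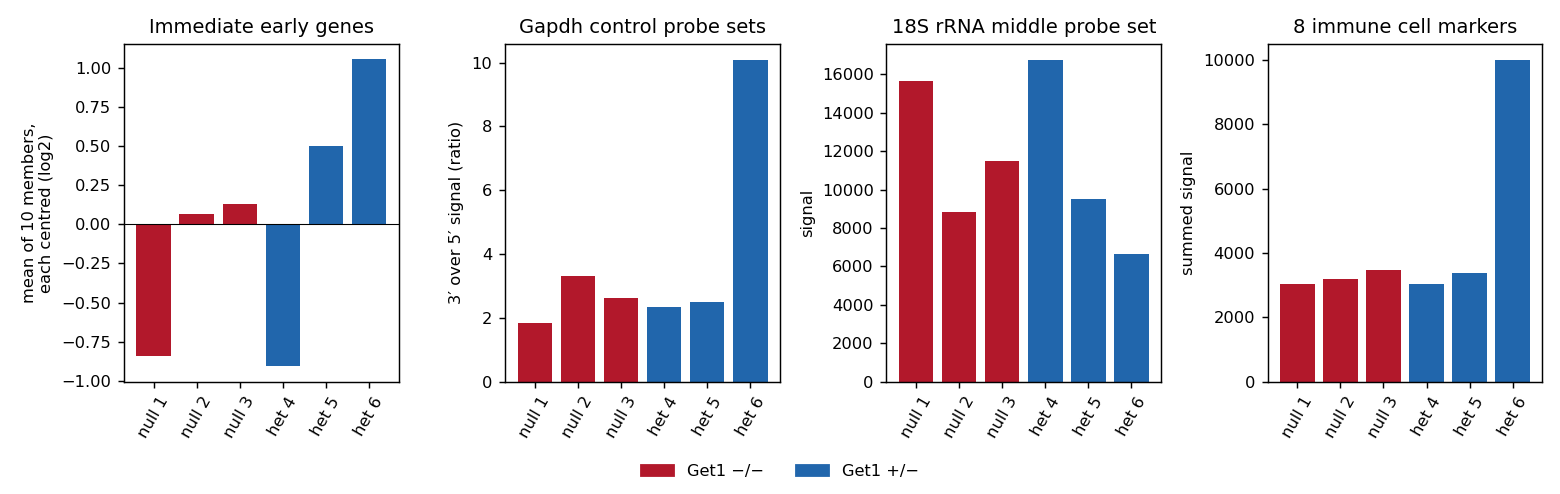
Bars per array for the mean of the 10 members (each centred, log2), the ratio of 3′ to 5′ signal of the Gapdh control, the 18S ribosomal RNA control signal and the summed signal of 8 immune cell markers, null arrays in red and heterozygous arrays in blue. Heterozygous 6 is highest for the members (1.05), the Gapdh ratio (10.1) and the immune markers (9990), while null 1 and heterozygous 4 are lowest for the members and highest for 18S.

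Members that were low or high together can also be described by pairwise correlation over the 6 arrays, which all members share. Among the 7 members lowest on null 1 and heterozygous 4, a set recognised after the values had been seen, Pearson's r ran from 0.65 (Dusp1 with Nr4a1) to 0.95 (Atf3 with Nr4a1), with a median of 0.88 over 21 pairs. Without heterozygous 6 these values ran from 0.47 to 0.97. The 7 were picked for sharing their lowest arrays, so high r among them follows at least in part from that choice. Both of those arrays remain when heterozygous 6 is left out, and the same choice set Jun, Junb and Zfp36 apart. Fos went most closely with Dusp1 (0.94) and Ier2 (0.93). Jun lay between 0.65 and 0.91 against the 7, although its range was small. Junb was negative against each of the 7 (-0.29 to -0.56), and Zfp36 lay between -0.39 and 0.16. These r are descriptions of 6 points.

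Genes outside the group with the most similar pattern were Grasp, Fkbp9, Fibp, Evc2, Mapk7 and Twf2, with r from 0.988 (Twf2) to 0.995 (Grasp) against the mean of the 9 tested members over 6 arrays. They are the 6 highest of the 12735 genes tested, so r near the top of the scale follows from how they were picked. They gave 0.978 to 0.991 without heterozygous 6, but the arrays left had also served to pick them, so this is no separate check. Evc2 ranged over 2.03 log2 units, with signals of 37.6, 88.2 and 100.8 in null and 34.0, 110.1 and 189.1 in heterozygous bladders. The range was 0.42 for Fkbp9 and 0.51 for Mapk7, so their likeness is in order and proportion rather than in size.

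Other early genes were read against the same pattern. Of 38 tested transcription factors and effectors of the early response, 9 were in the top 10% by spread (23.7%). Egr2, a relative of Egr1, had log2 levels of 7.89, 8.80 and 9.10 in null and 7.91, 8.74 and 9.76 in heterozygous bladders, and correlated with the member mean at 0.95. Null 1 and heterozygous 4 were again the lowest arrays. Socs3, an inhibitor of cytokine signalling, and Ppp1r15a, which restores translation after stress, correlated at 0.91 and 0.92, and 17 of the 38 had an r over 0.5 (44.7%), as did 28.3% of all genes tested. Others of the 38 had a negative r, down to -0.88 for Gadd45a and -0.86 for Rhob. The mean of all 18193 genes itself had an r of 0.86 with the member mean. Nr4a3, a relative of Nr4a1, had levels of 12.49, 12.86 and 11.98 in null and 11.32, 13.22 and 12.99 in heterozygous bladders, where null 1 was not low.

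Of the 91 entries on 6 lists of the wider pathway, 87 had a probe set and 76 were tested. By limma 0 were called higher and 0 lower over all genes, and at an unadjusted p under 0.05 there were 5 higher and 3 lower, while 7.93% of all genes tested had such a p. The medians were -0.09 for other AP-1 subunits and small Maf partners, -0.04 for upstream factors and kinases, -0.04 for other early transcription factors and 0.01 for other early effectors. They were -0.35 for MAP kinase phosphatases and feedback inhibitors, and -0.06 for AU-rich RNA binding proteins and Zfp36 targets.

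Of the 76 tested pathway genes, 12 had genotypes that did not overlap (15.8%, and 13.4% of all genes tested), with null above in 7 and below in 5, and none passed the test. Gadd45g, a growth arrest and stress gene, had signals of 2552, 1929.5 and 3588 in null and 1242, 1423 and 645 in heterozygous bladders. The 3 null arrays were above the 3 heterozygous ones, with a difference of 1.30 (limma adjusted p = 0.351, exact permutation p = 0.1). Gadd45b had a difference of 0.99 (adjusted p = 0.577, limma), and Myc, a growth factor-induced transcription factor, of 1.22 (adjusted p = 0.546, limma), with a heterozygous mean of 5.34 that lay below the dim filter. Heterozygous 6 was the lowest array for all 3, and without it the differences were 0.96, 0.54 and 0.65.

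Bhlhe40, a clock-linked repressor, had a difference of 0.79 (adjusted p = 0.515, limma), and Fosl2, an AP-1 subunit, of 0.52 (adjusted p = 0.577, limma). The Fosl2 value rests on its brightest probe set and was -0.03 when all its probe sets were averaged. Among the kinases and cofactors upstream, Mapk8, which phosphorylates Jun, had a difference of -0.41 (adjusted p = 0.722, limma), which was -0.06 when its probe sets were averaged, and Mrtfa, a coactivator of SRF, had one of -0.52 (adjusted p = 0.724, limma), which was -0.30 without heterozygous 6. Atf7, an ATF relative, had -0.46 (adjusted p = 0.756, limma), and 0.07 when its probe sets were averaged. None of these genes was called.

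Among feedback genes, Dusp16 and Spry2, inhibitors of MAP kinase signalling, had differences of -0.62 and -0.61 (adjusted p = 0.606 and 0.624, limma). Spry2 was -0.15 when its probe sets were averaged. The chemokine gene Cxcl1, whose RNA Zfp36 is known to target, read 22.9, 30.3 and 40.3 in null and 56.1, 142.8 and 49.8 in heterozygous bladders. Its genotypes did not overlap, as in 13.4% of all genes tested, with a difference of -0.96 (adjusted p = 0.553, limma) that was -0.56 without heterozygous 5. The Cxcl1 null mean of 5.54 lay below the dim filter, and the difference was -0.57 at an offset of 64. Cxcl2 had -0.64 (adjusted p = 0.895, limma), and 0.20 without heterozygous 6.

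Lists for 2 conditions that can accompany early genes were read in the same way. Of 22 tested genes of heat shock and of the hypoxia response 0 were called by limma, and 3 had an unadjusted p under 0.05, all with a positive difference. Of all 12735 genes tested 7.93% had such a p, and 462 genes had it with a positive difference. The medians were 0.22 for heat shock and 0.23 for hypoxia, and -0.04 over all 18193 genes. Hspb1, a small heat shock protein, and Hmox1, haem oxygenase, had differences of 0.79 and 0.70 (adjusted p = 0.52 and 0.553, limma). Car9 and Egln3, both targets of hypoxia-inducible factors, had 0.77 and 0.61 (adjusted p = 0.549 and 0.656, limma), and Egln3 had 0.39 without null 1. The mean of the heat shock list, each gene centred, was 0.14, 0.16 and 0.10 on null 1 to 3 and -0.13, -0.29 and 0.02 on heterozygous 4 to 6, an order that is not that of the immediate early genes.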

How the data were processed

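Each array was summarised by the authors into linear intensity values per probe set. The submitters' processing notes name Affymetrix Expression Console 1.1 and PLIER 2.0 without their role or order. For background step, normalization and genome build, methods were not given in the sources used here. Upper quartiles over the 6 arrays ran from 334 to 370. The labels' protocol describes a whole-transcript labelling kit, which does not match the usual protocol for probe sets named in this way and could not be settled.

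From these, 34945 of 45101 probe sets had 1 gene symbol in the platform annotation. Intensities were used as log2(value + 16), which understates changes of dim genes, with the probe set of highest mean standing for its gene (18193 genes). The dimmest 30% were left out (mean log2 under 5.80, signal 39.7), and 12735 genes were tested. The genotypes were set against each other in limma 3.58.1 under R 4.3.3 (lmFit and eBayes, two-sided, Benjamini-Hochberg, threshold 0.05), after a run on simulated data. No list was tested as a list. Members and lists were chosen with earlier results of these data known. Genes named are the members, Grhl3, the 2 smallest p per pathway or condition list and the 6 most similar patterns. Egr2, Nr4a3, Socs3, Ppp1r15a, Gadd45a, Rhob and the marker genes were named after their values were seen. Alternatives covered the offset, filter, normalization, probe set choice, fit and each array left out. The number of arrays limits the precision.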

Additional observations from a re-analysis of the deposited data

How the results depend on the processing

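Across 14 alternatives (offsets of 1 and 64, no filter, quantile normalization, centring, averaged probe sets, trended robust eBayes, array weights, and leaving out each array), 0 of 140 member values passed the threshold, and 125 kept their sign. With array weights, where heterozygous 6 had the lowest weight (0.328), Fos was 0.018, Fosb 0.95, Nr4a1 0.60, Junb -0.16, Grasp 0.030 and Evc2 0.20. With an offset of 1, Fosb was 0.46 and Junb -0.0090, and the counts over all genes were 36 higher and 5 lower. With probe sets averaged, Fosl2 was -0.028 and Atf7 0.067. With 1 array left out, Fos ran from -1.09 to 0.11, Fosb from -1.64 to 0.77, Nr4a1 from -1.37 to 0.59 and Junb from -0.23 to 0.36. Cxcl2 ran from -1.41 to 0.20, Grasp from -0.33 to 0.0032 and Evc2 from -0.89 to 0.13. The count of genes higher ran from 38 to 54 and of genes lower from 5 (without null 2 or heterozygous 5) to 9 (without null 3). The cause was not tested. No paired analysis was possible because the genotypes share no replicate numbers. Dim members (Junb, Ier2 and the low arrays of Fosb and Nr4a1) are limited by signal near background.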
